A study of Mus musculus with 6 samples.

Results

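The genes described here build and steer the branched actin network of the macrophage: the WAVE and WASP activators, the Arp2/3 complex, actin and its turnover factors, and the adhesion proteins of podosomes. Members were the rows of the deposited table whose gene symbol was on a list of 49 symbols, and 46 of its 16836 genes matched. Wasf1 and Fscn1 were not analysed here, and Tks4 is another name for the protein of Sh3pxd2b, which is among the 46. Cyfip1, a WAVE subunit whose gene lies close to Ube3a, is not a member and is given only for comparison.

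RNA sequencing measured mRNA from bone marrow-derived macrophages, cells matured in culture from marrow precursors, in 3 libraries from Ube3a knockout mice (KO, Ube3a-/-) and 3 from wild-type littermates (WT). No treatment, age or strain is given in the labels, nor how the allele was made. Whether the 3 libraries of a genotype are 3 mice is unstated, and p-values here reflect only how these libraries vary, which may be technical in part. Levels are CPM, read counts scaled to a common library size by the authors' factors, given as mean ± SD with n = 3 per genotype.

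Actin filaments push the membrane forward when the Arp2/3 complex starts a new filament as a branch on an old one. Arp2/3 is switched on by WASP-family proteins: the WAVE complex, which answers to the GTPase RAC at the edge of lamellipodia, and WASP, which answers to CDC42. In macrophages WASP also builds podosomes, short-lived adhesion dots with an actin core and a ring of talin, vinculin and paxillin that touch and digest matrix. Loss of WASP or of the haematopoietic WAVE subunit NCKAP1L is known to impair the migration of leukocytes.

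The libraries held 25454862 to 35517269 reads in the table, and the 46 members together took 2.73% to 2.90% of the CPM in each. Ube3a, the targeted gene, stood at 61.2 to 77.0 CPM in KO and 177.6 to 207.1 CPM in WT, and fell (limma with Benjamini-Hochberg adjustment, adjusted p = 0.00444). All 9 macrophage markers looked for were tested, among them Csf1r at 1424 to 1584 CPM and Adgre1 at 620.1 to 1018 CPM. Markers of stroma (5 of 10 in the table) summed to 2.89 to 3.20 CPM in KO and 3.14 to 3.19 CPM in WT, and those of megakaryocytes (2 of 6) to 0.2 to 0.524 CPM in KO and 0.576 to 0.943 CPM in WT. Markers of osteoclasts (3 of 5), which also form podosomes, summed to 9.89 to 12.4 CPM in KO and 12.6 to 16.6 CPM in WT. Of these only Dcstamp separated the genotypes, at 7.29 to 7.76 CPM in KO and 9.35 to 13.0 CPM in WT, while Acp5 and Ctsk overlapped. The megakaryocyte and osteoclast sums did not overlap between genotypes, beside 9.95% of single genes among all those tested. The 2 megakaryocyte markers, Itga2b and Ppbp, were too low to be tested, and each alone overlapped between genotypes. None of the 3 osteoclast markers was called, and the part of either cell type in the members' values was not tested. Dendritic markers (2 of 6) summed to at most 0.546 CPM and Ms4a1, the only lymphocyte marker of 6 in the table, to at most 0.12 CPM, while none of the 5 mast cell or basophil markers was analysed here. In these bulk libraries fewer cells of a type and less RNA per cell cannot be told apart.

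None of the 46 members changed with genotype, against 0.0165% of the 12118 genes tested (2 genes). The test was limma on log2(CPM + 1), two-sided, called at a Benjamini-Hochberg adjusted p under 0.05, and limma-voom on the same genes also called no member. At an unadjusted limma p under 0.05 there was 1 member, Fgr, which is 2.17% of the members beside 4.13% of all tested genes. It was lower in KO, as were 2.44% of all tested genes at that p, and no member was higher, beside 1.68%. Leaving out 1 library gave 0 to 2 members at that p, beside 1.23% to 10.6% of all tested genes. With a GC trend removed from each library there were 3 (Fgr, Nckap1 and Wasl, beside 4.42%), and without both replicate 2 libraries 4 (Fgr, Nckap1, Src and Vcl, beside 11.4%). The CPM of the genotypes did not overlap for 1 member, Wasl, beside 9.95% of all tested genes. The members' median log2 fold change (KO minus WT) was 0.03, with 29 positive and 17 negative, beside a median of 0.0015 over all genes.

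The measurements were tight enough to bound most of the members. For 36 of the 46 members (78.3%) both ends of the 95% interval were under a 1.25-fold difference, which held for 52.1% of all tested genes, and for 43 (93.5%, beside 90.4%) they were under a 1.5-fold difference. Within 2-fold the shares were 97.8% and 98.3%. These bounds are on the log2(CPM + 1) scale, which understates the change of the lowest genes. The 3 members whose interval reached beyond 1.5-fold were Fgr, Vcl and Src. The plot of intervals shows the 46 members by role.

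**Figure D1:**
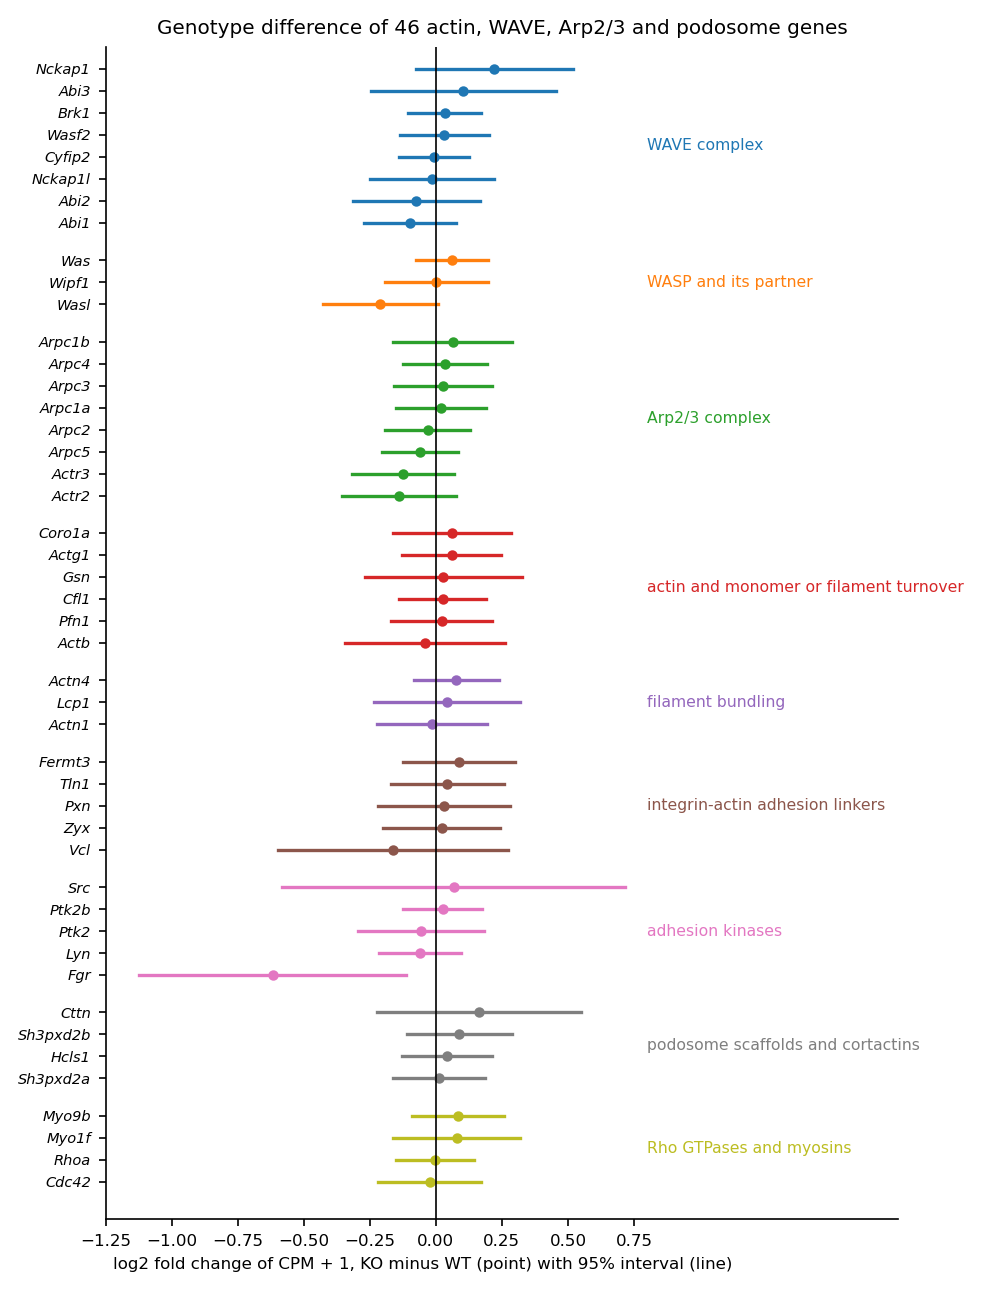
Log2 fold change of CPM + 1 between genotypes, KO minus WT, on the horizontal axis, with the 95% interval of the limma fit as a line, for 46 genes grouped by role on the vertical axis. All intervals but that of Fgr, which runs from -1.12 to -0.11, include no change.

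Actb and Actg1, the cytoplasmic actins, encode nearly the same protein, so their annotated coding sequences were compared. The first 33 bases of each coding sequence, from GENCODE M21 transcripts, are shown with capitals at the bases that differ.
Actb: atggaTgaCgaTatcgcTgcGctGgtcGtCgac
Actg1: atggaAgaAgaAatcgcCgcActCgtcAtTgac
In this stretch 8 bases differ, and over the 1125 coding bases 128 differ. The coding sequences were 88.6% identical, and the longest run they share is 62 bases. Both genes also have processed pseudogenes, so some of their reads may be lost or shared, and how such reads were treated was not stated.

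The WAVE complex joins 5 kinds of subunit, a WASF protein, CYFIP, NCKAP, ABI and BRK1, and 8 of its 9 listed genes were tested. None changed, and their log2 fold changes ran from -0.10 to 0.22 with a median of 0.01. Wasf2, the WASF protein of the list that was measured here and the part that touches Arp2/3, stood at 363, 398 and 344 CPM in KO replicates 1 to 3 and at 364, 346 and 369 CPM in WT. The genotypes overlapped, and its log2 fold change was 0.03 (95% interval -0.13 to 0.20). Brk1, the smallest subunit, which steadies the complex, stood at 128.1, 135.6 and 128.9 CPM in KO and 122.0, 133.2 and 128.7 CPM in WT. Its 6 values spanned less than those of most members, with an SD on the log2 scale of 0.045 in KO and 0.063 in WT, beside member medians of 0.106 and 0.093.

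The CYFIP position is filled by the RAC-binding subunits CYFIP1 and CYFIP2. Cyfip2 (chromosome 11: 46193850 to 46312859, minus strand, GRCm38) stood at 176.8, 180.4 and 167.7 CPM in KO and 178.5, 177.6 and 171.1 CPM in WT. The genotypes overlapped, and the log2 fold change was -0.0070 ± 0.06 (SE), with a 95% interval of 0.907 to 1.09 times the WT level (limma adjusted p = 0.98). Cyfip1 (chromosome 7: 55841745 to 55932602, plus strand), 3.30 Mb from Ube3a, stood at 525.8, 507.7 and 503.0 CPM in KO and 664.5, 660.5 and 657.7 CPM in WT. All 3 KO values of Cyfip1 lay below all 3 WT values, but its difference of -0.37 on the log2 scale did not pass (limma adjusted p = 0.543). It shares 1316 exon bases with Nipa2 on the opposite strand, and without the strand setting reads in that part cannot be assigned.

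Per kilobase of exons, Cyfip1 exceeded Cyfip2 by 1.77, 1.67 and 1.79 times in KO and by 2.22, 2.21 and 2.29 times in WT. The 6 ratios did not overlap between genotypes, and their exact permutation p of 0.1, two-sided, is the smallest that 3 against 3 allows. Of 13 such pairs compared, this one and Was with Wasl reached that value.

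**Figure D2:**
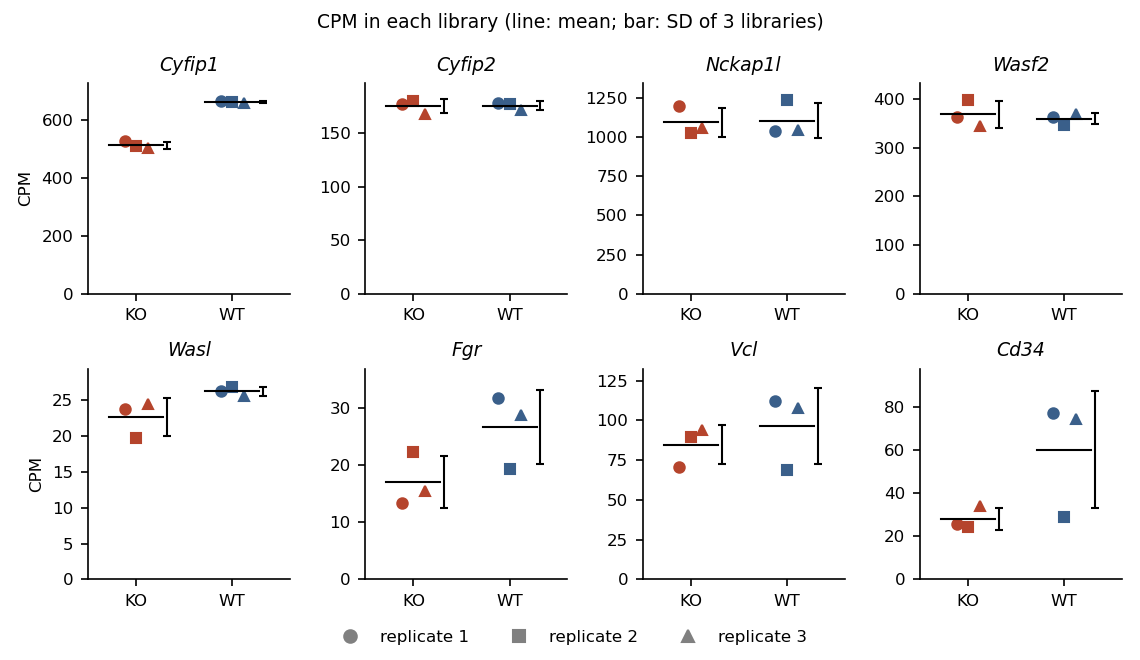
CPM on the vertical axis (starting at 0) in each of 3 KO and 3 WT libraries for Cyfip1, 6 member genes and the progenitor marker Cd34, with the mean as a line and the SD as a bar. Cyfip1 and Wasl show no overlap between genotypes, Cyfip2, Nckap1l and Wasf2 overlap, and Fgr, Vcl and Cd34 are highest in WT replicates 1 and 3.

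Of the mRNA for the NCKAP position, almost all came from the haematopoietic gene, and protein was not measured. Nckap1l (chromosome 15: 103453794 to 103498810) stood at 1202, 1027 and 1058 CPM in KO and 1039, 1236 and 1046 CPM in WT. The highest library of each genotype was a different replicate, and the log2 fold change was -0.01 (95% interval -0.25 to 0.22). Nckap1, the form of most other tissues, stood at 2.60, 1.99 and 2.68 CPM in KO and 2.02, 2.05 and 1.72 CPM in WT, on 58 to 87 reads per library. Per kilobase, Nckap1l exceeded Nckap1 by 329.8 to 508.6 times. The higher KO mean of Nckap1 did not pass (log2 fold change 0.22 ± 0.13 SE, limma adjusted p = 0.866).

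The ABI subunits tether the WASF protein to the complex. Abi1 stood at 261.1, 225.1 and 263.3 CPM in KO and 269.7, 271.0 and 260.0 CPM in WT. The low KO mean came from replicate 2, and the other KO libraries lay within the WT range. Abi2 stood at 38.58 to 43.96 CPM in KO and 37.9 to 48.2 CPM in WT, and Abi3 at 14.7 to 17.4 and 11.5 to 18.0 CPM. Per kilobase, Abi1 exceeded Abi2 by 11.7 to 15.1 times and Abi3 by 13.3 to 24.3 times. The Abi3 value is uncertain, since its annotated exons share 2913 bases with Zfp652 and 1708 with Phospho1 on the opposite strand.

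WASP and its relatives showed the one member whose genotypes did not overlap. Was (chromosome X: 8081453 to 8090498), the WASP of blood cells, stood at 116.1, 123.7 and 118.1 CPM in KO and 109.5, 116.5 and 116.9 CPM in WT, with a log2 fold change of 0.06 (95% interval -0.08 to 0.20). Wasl, the N-WASP found in most tissues (chromosome 6: 24613805 to 24665009, minus strand), stood at 23.8, 19.7 and 24.5 CPM in KO and 26.3, 26.9 and 25.7 CPM in WT. All KO values of Wasl lay below all WT values, with KO replicate 2 lowest, and the log2 fold change was -0.21 ± 0.09 SE (unadjusted limma p = 0.0562, limma adjusted p = 0.866, exact permutation p = 0.1). Without KO replicate 2 it was -0.12 (limma adjusted p = 0.9998). Wipf1, which holds and protects WASP, stood at 293 to 338 CPM in KO and 292 to 344 CPM in WT, with a log2 fold change of 0.0016.

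Per kilobase, Was exceeded Wasl by 12.6, 16.3 and 12.5 times in KO and by 10.8, 11.2 and 11.8 times in WT. The KO ratios all lay above the WT ratios (exact permutation p = 0.1, two-sided, the smallest possible), with KO replicate 2 farthest out.

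The Arp2/3 complex consists of the actin-like ARP2 and ARP3 and 5 ARPC subunits, and its 8 listed genes did not change. Their log2 fold changes ran from -0.14 to 0.06, with 4 positive, 4 negative and a median of -0.0061. Actr2, which encodes ARP2, stood at 1028, 854 and 1010.4 CPM in KO and 1102, 1068 and 1010.2 CPM in WT. Actr3, which encodes ARP3, stood at 606, 523 and 601 CPM in KO and 636, 659 and 589 CPM in WT. For both genes KO replicate 2 was the lowest of the 6 libraries, and the other KO libraries overlapped with WT. Their log2 fold changes were -0.14 ± 0.09 and -0.12 ± 0.08 (SE), and without KO replicate 2 both were -0.06.

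The ARPC subunits were at least as level. Arpc2, which with ARPC4 forms the core that clasps the mother filament, stood at 1066, 1051 and 1100.3 CPM in KO and 1122, 1087 and 1078 CPM in WT. These libraries differed by little, with an SD on the log2 scale of 0.034 in KO and 0.030 in WT. Arpc4 stood at 246 to 252 CPM in KO and 223 to 256 CPM in WT, Arpc3 at 377 to 439 and 373 to 421 CPM, and Arpc5 at 468 to 496 and 487 to 516 CPM. The mRNA for the ARPC1 subunit was mainly Arpc1b, the form whose loss is known to cause immune deficiency. Arpc1b stood at 715 to 803 CPM in KO and 656 to 813 CPM in WT. Per kilobase, Arpc1b exceeded Arpc1a by 6.66 to 7.51 times, although 931 of its exon bases overlap Pdap1 on the opposite strand.

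Actin itself was the most abundant member. Actb (chromosome 5: 142903115 to 142906754, minus strand) stood at 6196, 6576 and 5504 CPM in KO and 6505, 5736 and 6537 CPM in WT, 20.1% to 23.2% of the members' summed CPM. The genotypes overlapped, and the log2 fold change was -0.04 (95% interval -0.34 to 0.26). Actg1 (chromosome 11: 120345690 to 120348542, minus strand) stood at 403, 484 and 432 CPM in KO and 408, 416 and 439 CPM in WT. KO replicate 2 was the highest of the 6 for Actg1, whose log2 fold change was 0.06 (95% interval -0.13 to 0.25). Per kilobase, Actb exceeded Actg1 by 12.6 to 15.8 times.

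The factors that turn filaments over were level in the means and varied by library. Cfl1, the severing protein cofilin, stood at 1007 to 1065 CPM in KO and 985 to 1053 CPM in WT, and Pfn1, the monomer-binding profilin, at 1015 to 1159 and 1058 to 1123 CPM. Gsn, the calcium-driven severing protein gelsolin, spread further, at 760, 952 and 855 CPM in KO and 855, 710 and 961 CPM in WT. Coro1a, a leukocyte coronin that works with Arp2/3, stood at 499.8 to 611.5 CPM in KO and 478.6 to 553.3 CPM in WT. It lies on chromosome 7 but 67.4 Mb from Ube3a. None of the 6 genes of this role changed, and their log2 fold changes ran from -0.04 to 0.06.

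Bundling proteins tie filaments side by side. Lcp1, the leukocyte bundler L-plastin, was the second most abundant member in CPM, at 3423, 3257 and 3293 CPM in KO and 3041, 3734 and 2962 CPM in WT. WT replicate 2 was the highest and WT replicate 3 the lowest of the 6, so that the WT libraries enclosed all KO values. Actn4 and Actn1, the non-muscle alpha-actinins, stood at 540 to 606 against 527 to 557 CPM and at 221 to 242 against 202 to 247 CPM. Their coding sequences share a run of 65 identical bases, and per kilobase Actn4 exceeded Actn1 by 1.93 to 2.46 times. Actn4 lies on chromosome 7, 30.3 Mb from Ube3a, and had a log2 fold change of 0.08 (limma adjusted p = 0.877).

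The linkers that couple integrins to actin form the podosome ring. Tln1, which encodes the integrin activator talin-1, stood at 1948, 2187 and 1947 CPM in KO and 1914, 1912 and 2072 CPM in WT. Fermt3, the blood-cell kindlin that works beside it, stood at 321 to 395 and 307 to 347 CPM, Pxn (paxillin) at 183 to 228 and 175 to 214 CPM, and Zyx (zyxin) at 134 to 163 and 130 to 151 CPM. For all 4 of these genes KO replicate 2 was the highest of the 6 libraries. Vcl, which encodes vinculin (chromosome 14: 20929398 to 21033676), differed more between libraries, at 70.9, 89.4 and 93.8 CPM in KO and 112.0, 68.9 and 108.0 CPM in WT. WT replicates 1 and 3 were highest and WT replicate 2 was lowest, and the log2 fold change was -0.16 with a 95% interval of -0.60 to 0.27. Leaving out 1 library at a time gave -0.38 to -0.04. Without both replicate 2 libraries it was -0.43 (95% interval -0.70 to -0.15, limma adjusted p = 0.185), and no fit called it. Vcl shares 2090 exon bases with Ap3m1 on the opposite strand.

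Among the kinases that signal from adhesions, Fgr had the smallest unadjusted p of all members. Fgr (chromosome 4: 132974095 to 133001910, plus strand), a SRC-family kinase of myeloid cells, stood at 13.4, 22.2 and 15.5 CPM in KO and 31.8, 19.4 and 28.7 CPM in WT. KO replicate 2 lay above WT replicate 2, and the other 2 KO libraries lay below all WT libraries. The means were 17.0 ± 4.62 and 26.6 ± 6.45 CPM, a log2 fold change of -0.62 (95% interval -1.12 to -0.11, unadjusted limma p = 0.0224), which did not pass (limma adjusted p = 0.866, exact permutation p = 0.2). In the authors' deposited table the p-value of Fgr, not adjusted, was 0.0169.

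The Fgr difference depended on which libraries were used. Leaving out 1 library gave log2 fold changes of -0.82 to -0.47. Without KO replicate 1, KO replicate 3, WT replicate 1 or WT replicate 3 the unadjusted limma p was 0.0674 to 0.0785, and without KO replicate 2 or WT replicate 2 the log2 fold change was -0.82. The replicate 2 libraries also stand apart in Xist, with 0.8996 CPM in KO replicate 2 and 0.495 CPM in WT replicate 2 against 1087 to 1329 CPM in the other 4. Within the 4 other libraries Fgr stood at 13.4 and 15.5 CPM in KO and 31.8 and 28.7 CPM in WT. The fit to them gave a log2 fold change of -1.02 ± 0.11 SE (limma adjusted p = 0.0122, 2 libraries per genotype). The libraries left out held the highest KO value and the lowest WT value of Fgr, so leaving them out widens its difference. In that fit Fgr was the 1 member called, among 24 genes or 0.198% of those tested. Over the other 15 alternative fits its adjusted limma p ran from 0.238 to 0.9998. Between the replicate 2 libraries the values were 22.2 CPM in KO and 19.4 CPM in WT, with no replicates and so no test, and the difference between the 2 sets of libraries was not tested.

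Some markers of progenitor cells and of neutrophils, but not the whole lists, were also highest in WT replicates 1 and 3. Cd34 stood at 25.8, 24.5 and 34.0 CPM in KO and 77.3, 28.9 and 74.1 CPM in WT, and made up most of a list of 5 progenitor markers in the table (of 7) that summed to 25.8 to 35.5 CPM in KO and 30.0 to 78.2 CPM in WT. Of that list Kit, Gata2, Myb and Flt3, all at 1.03 CPM or less, did not have WT replicates 1 and 3 as the highest pair. The neutrophil markers Ngp and S100a9 did, at 3.20 and 3.72 CPM and at 4.61 and 4.94 CPM. Both were lowest in KO replicate 1, at 0.2 and 1.40 CPM. S100a8, Mpo, Camp and Elane also had WT replicates 1 and 3 as the highest pair. Ltf did not, at 2.31 CPM in KO replicate 2 against 2.18 CPM in WT replicate 1. The 8 neutrophil markers in the table (of 10) summed to 26.2 to 33.4 CPM in KO and 29.1 to 33.6 CPM in WT, of which Csf3r made up 13.8 to 25.3 CPM. Csf3r went the other way and was lowest in WT replicates 1 and 3, at 13.8 and 17.0 CPM against 20.1 to 25.3 CPM elsewhere. Camp and Elane were at 0 reads in KO replicate 1 and WT replicate 2, and Mpo in WT replicate 2. Such a split between libraries was common: WT replicates 1 and 3 both lay above KO replicate 1 and WT replicate 2 in 25.2% of all tested genes and 30.4% of the members, and both below them in 27.7% and 34.8%. The part of these cells in the Fgr and Vcl values was not tested.

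The other adhesion kinases were level between genotypes. Lyn, the main SRC-family kinase of the list, stood at 237.0, 242.7 and 244.1 CPM in KO and 271.9, 238.9 and 244.4 CPM in WT, and per kilobase it exceeded Fgr by 8.08 to 16.8 times. Src itself was rare, at 3.48, 1.57 and 2.44 CPM in KO and 1.28, 3.54 and 2.33 CPM in WT on 40 to 100 reads, and its interval of 0.669 to 1.64 times WT bounded little. Ptk2b, the PYK2 kinase of macrophages, stood at 454 to 483 CPM in KO and 448 to 481 CPM in WT. Ptk2, which encodes focal adhesion kinase, stood at 43.4, 32.8 and 40.3 CPM in KO and 40.4, 40.7 and 39.3 CPM in WT, with KO replicate 2 lowest. Per kilobase, Ptk2b exceeded Ptk2 by 17.7 to 22.7 times.

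None of the 4 podosome scaffolds and cortactins changed. Their log2 fold changes were 0.01 to 0.16, but with the GC trend removed Hcls1 was at -0.0050 and Sh3pxd2a at -0.0508, and without KO replicate 1 Cttn was at -0.0008. Sh3pxd2b and Sh3pxd2a encode TKS4 and TKS5, SRC substrates that gather the podosome. Sh3pxd2b stood at 445, 420 and 396 CPM in KO and 375, 440 and 373 CPM in WT, with a log2 fold change of 0.09 (95% interval -0.11 to 0.29). Sh3pxd2a stood at 115.5, 137.2 and 119.8 CPM in KO and 126.3, 121.2 and 121.4 CPM in WT, with the KO values enclosing the WT values and a log2 fold change of 0.01. Hcls1, the haematopoietic cortactin relative HS1, stood at 406 to 459 CPM in KO and 405 to 445 CPM in WT. Cttn, cortactin itself, stood at 3.20, 1.80 and 2.19 CPM in KO and 1.73, 2.12 and 2.14 CPM in WT, and per kilobase Hcls1 exceeded it by 238.2 to 407.3 times.

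The GTPases and myosins of the list were also level. Cdc42, the GTPase that opens WASP, stood at 1166, 1024 and 1147 CPM in KO and 1103, 1189 and 1098 CPM in WT. Rhoa, which drives contraction, stood at 367 to 389 CPM in KO and 358 to 390.3 CPM in WT, a log2 fold change of -0.0032 (95% interval -0.15 to 0.14). Myo1f, a membrane-linked myosin of leukocytes, stood at 668 to 795 and 631 to 759 CPM, and Myo9b, another unconventional myosin, at 287 to 321 and 267 to 307 CPM. None of these 4 genes changed.

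Where the list held close relatives, the blood-cell form was the higher one in all 6 libraries for Nckap1l over Nckap1, Hcls1 over Cttn and Was over Wasl. Ptk2b was also above Ptk2 in all 6, while Fgr, a kinase of myeloid cells, lay below Lyn by 8.08 to 16.8 times. These ratios use the summed length of all annotated exons, so a gene with long rarely used exons is understated. Apart from Cyfip1 with Cyfip2 and Was with Wasl, the ratios of the 13 pairs overlapped between genotypes, with exact permutation p-values of 0.2 to 1.

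**Figure D3:**
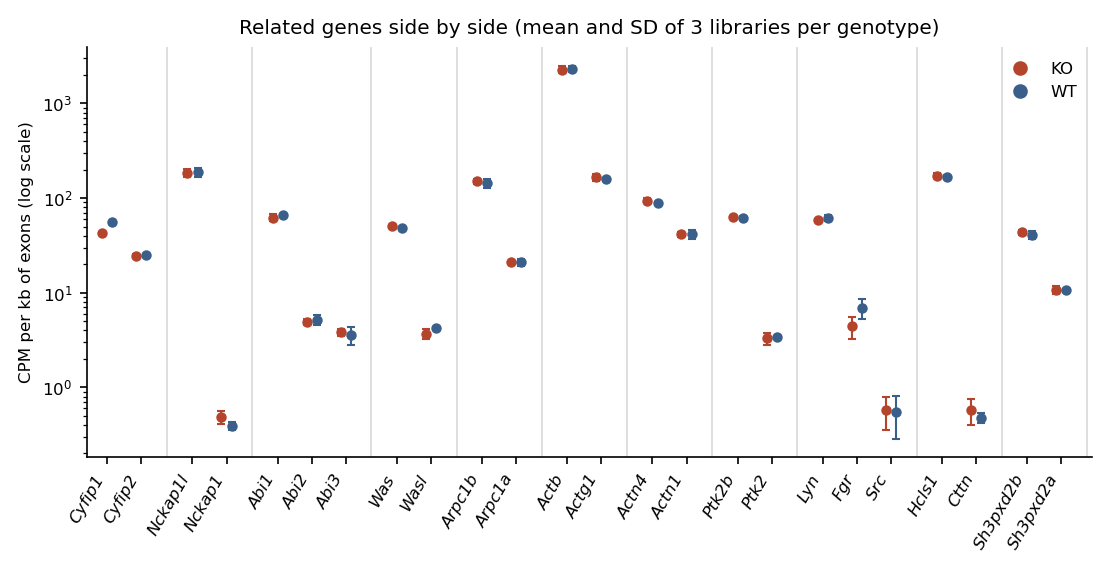
CPM per kilobase of exons, on a log axis, for related genes placed side by side, as mean and SD of 3 KO and 3 WT libraries. Nckap1, Src and Cttn lie below 1 CPM per kilobase, while Actb lies near 2305.

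How far KO replicate 2 stood from the other libraries varied with the base composition of the transcripts. Relative to the mean of the 6 libraries, this library was the lowest for 9 members, Abi1, Actr2, Actr3, Arpc2, Arpc5, Cdc42, Nckap1l, Ptk2 and Wasl, whose transcripts had a GC content of 41.4% to 50.2%. Those are 19.6% of the members, beside 26.7% of all tested genes. It was the highest for 16 members (34.8%, beside 25% of all tested genes), among them Pxn, Zyx, Coro1a, Fermt3 and Actg1, with a GC content of 49.8% to 60.2%. Across the 46 members the deviation of KO replicate 2 had a correlation of 0.650 with GC content, and across the 12106 tested genes with a known GC content one of 0.564. These are descriptions across genes that share 1 library, and in the other 5 libraries the members' correlations ran from -0.446 to 0.197.

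Taking GC content into account made some small differences smaller and others larger. With a GC trend removed from each library, a fit chosen after seeing the data, the log2 fold change of Actr2 was -0.05 instead of -0.14 and that of Abi1 was -0.0071 instead of -0.10. Nckap1 was at 0.27 instead of 0.22, Actb at -0.09 instead of -0.04, Lcp1 at 0.07 instead of 0.04 and Cdc42 at 0.06 instead of -0.02. Wasl stood at -0.17 and Fgr at -0.66 in that fit, in which no member was called. Cyfip1 was at -0.36 both there and without KO replicate 2, and the part of base composition in the other differences was not tested further.

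**Figure D4:**
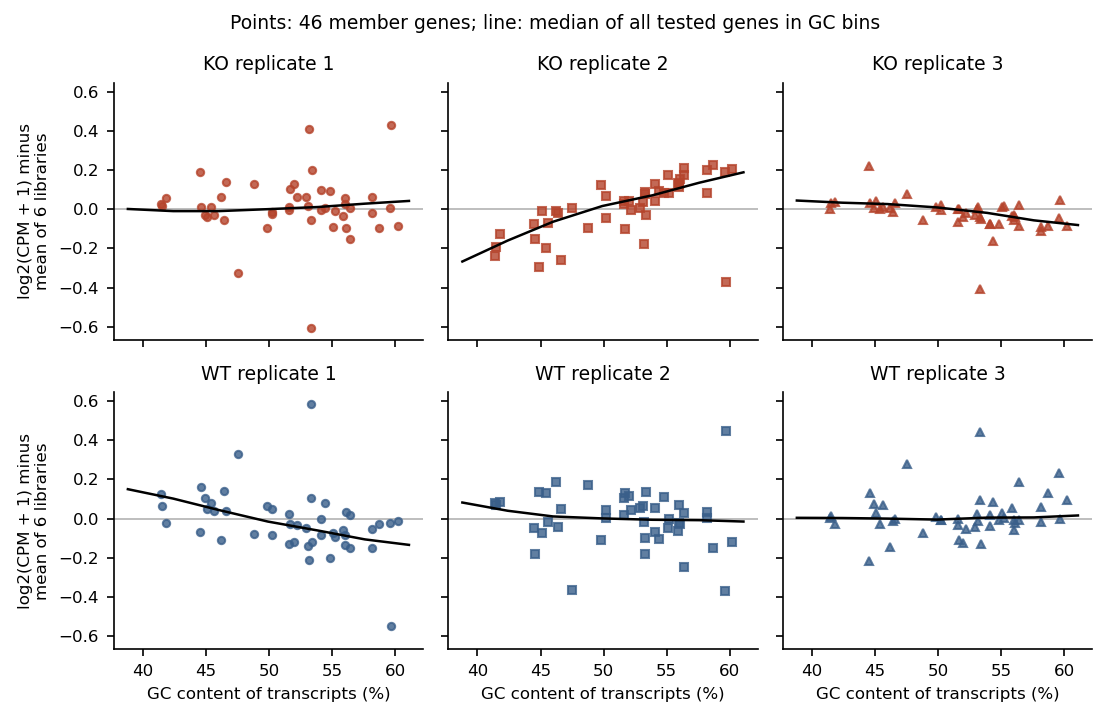
Deviation of log2(CPM + 1) from the mean of 6 libraries, on the vertical axis, against the GC content of a gene's transcripts in percent, for the 46 members (points) and the median of all tested genes in GC bins (line), 1 panel per library. The points of KO replicate 2 climb with GC content, with a correlation of 0.650, and those of KO replicate 3 and WT replicate 1 decline, at -0.446 and -0.392.

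The promoters of the list were searched for the CArG box, to which the factor SRF binds. SRF is switched on by MRTF coactivators, which free actin monomers hold back, and actin and adhesion genes are among its known targets. RefSeq windows (GRCm38.p6, 250 bases before to 50 bases after the start) matched 35 of the 46 members, not Abi2, Abi3, Actb, Cttn, Lyn, Nckap1, Nckap1l, Ptk2, Ptk2b, Pxn or Sh3pxd2a. A box, CC and GG around 6 bases that are A or T, stood in 3 of the 35 (8.57%) and in 1.81% of 27025 genes; it reads alike on both strands. Each box is shown with bases that flank it, in these 3 members because they carry it, with the box in capitals. The stretches end before the start site.
Actg1, chr11:120348541-120348620, minus strand: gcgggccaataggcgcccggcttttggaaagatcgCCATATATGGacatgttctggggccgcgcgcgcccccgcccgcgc
Arpc4, chr6:113377863-113377907, plus strand: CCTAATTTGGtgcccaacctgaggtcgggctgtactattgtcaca
Vcl, chr14:20929148-20929215, plus strand: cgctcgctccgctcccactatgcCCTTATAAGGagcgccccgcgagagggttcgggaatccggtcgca
The first base of the box lies 90 bases before the start in Actg1, 250 in Arpc4 and 227 in Vcl. The 3 genes did not share a library order: KO replicate 2 was highest for Actg1, WT replicate 2 for Arpc4 and WT replicate 1 for Vcl. A match in letters is a description and not a site of binding.

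Genes that work beside the members were counted on lists of related function, and no gene on them was called. Of 14 tested neighbours of WAVE and WASP, Cyfip1 alone had an unadjusted limma p under 0.05, beside 4.13% of all tested genes. Whamm, an activator of Arp2/3 at internal membranes, had a log2 fold change of 0.15. Of 17 small GTPases and effectors, 7 were positive and 10 negative (median -0.02), with the GTPase Rhog at 0.15 and the kinase Rock1 at -0.19. Of 14 exchange factors and GTPase-activating proteins, 6 were positive (median -0.0042), with Arhgap25 at 0.11 and Vav1 at 0.10. Of 23 filament turnover genes, 13 were positive (median 0.03), with the monomer-binding thymosin Tmsb10 at 0.18 and the severing factor Dstn at -0.12.

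Adhesion and podosome partners had 12 positive and 15 negative of 27 tested (median -0.04). The integrin Itgav stood at 149.0, 146.3 and 163.2 CPM in KO and 219.2, 155.4 and 182.0 CPM in WT. Its difference of -0.27 on the log2 scale did not pass (limma adjusted p = 0.866), and for this gene the genotypes overlapped through WT replicate 2. Lims1, an adaptor of integrin-linked kinase, stood at 261.1 to 310.9 CPM in KO and 317.0 to 360.3 CPM in WT. Its genotypes did not overlap, as for 9.95% of all tested genes, and its -0.19 did not pass (limma adjusted p = 0.866). Targets of SRF had 4 positive and 7 negative of 11 tested (median -0.02). The low genes Egr1 and Acta2, at 2.02 CPM or less in every library, had -0.36 and -0.19. The genotypes overlapped for Egr1 but not for Acta2, at 0.894 to 1.22 CPM in KO and 1.25 to 1.47 CPM in WT.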

How the data were processed

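Per the labels' protocols, mRNA libraries were made from total RNA, 3 KO and 3 WT. The tools named in the submitters' processing notes are FastQC 0.11.15, HTSeq 0.11.0, Trimmomatic 0.36, Cufflinks and HISAT2 2.1.0. What each did, the build, the annotation and the strand setting: not given in the sources used here. Per the file headers the deposited expression values are CPM, and by their range (-3.94 to 14.4) log2 CPM with a prior count. The authors' deposited p-values are not adjusted. Values of size 1 or more had lost the decimal mark; the reading that gave whole reads (within 1e-06) was taken, which was found for 100% of genes in each library and tested on simulated data. The authors' library sizes were 0.982 to 1.02 times the reads in the table, and 1 read was worth 0.0277 to 0.0400 CPM.

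Genes reaching 1 CPM in 3 or more libraries were tested (12118 genes), using limma 3.58.1 in R 4.3.3 on log2(CPM + 1), with eBayes trend and genotype as the only term. The test planned for raw counts was not run, because the deposited values are log2 CPM, though whole reads were recovered from them. limma-voom over all genes gave p-values within 5.56e-07 (relative gap) of the 16830 readable ones of the authors. Libraries of one genotype differed by 10.1 to 40.3 chi-square per degree of freedom, so none were merged. Positions, exon lengths and GC content come from GENCODE M21 (GRCm38), matched for 16820 of 16836 genes. The members, lists and tests were chosen with earlier results of these data known. Values per library are given for Ube3a, Cyfip1, the 8 members with the smallest p, the most abundant member of each role, the 3 most variable members and related pairs, and values for 2 genes of each related list by p; values of other members and markers were added after they were seen. The fit was also tested on simulated data. The 16 alternatives cover pseudocount, filter, scaling, limma-voom, replicate block, GC trend and libraries left out.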

Additional observations from a re-analysis of the deposited data

How the results depend on the processing

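The count of called members was 0 in 15 of 16 alternative fits, among them the 6 fits without 1 library; without both replicate 2 libraries it was 1 (Fgr, log2 fold change -1.02). Over all genes, 1 gene was higher and 1 lower in KO. The higher count was 0 with at least 5 CPM in 3 libraries, limma-voom, no filter, a pseudocount of 4 or a GC trend removed, and 0 to 3 without 1 library; the lower count was 1 to 5 without 1 library. Without both replicate 2 libraries 11 genes were higher and 13 lower. The members' median was -0.0144 with the GC trend removed, -0.0111 without both replicate 2 libraries and -0.0054 to 0.0417 without 1 library. The cause was not tested.

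Deviations of same-numbered libraries had correlations of -0.216, -0.134 and 0.14, and those of differently numbered libraries ran from -0.394 to 0.398. Across genes these values showed no pairing by replicate number, but they cannot exclude one. In Xist, both replicate 2 libraries were set apart from all the others, as given above for Fgr. Across genes, replicate 2 also differed most from the other libraries of its genotype. In KO its pairs with replicates 1 and 3 had 32.7 and 26.6 chi-square per degree of freedom, against 14.3 between replicates 1 and 3. In WT these values were 40.3 and 31.6 against 10.1. Whether the replicate number marks libraries handled together was not tested. With the number as a replicate block no member was called, 1 gene was higher and 1 lower, and the members' median was 0.0255.

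No reversed value below was called. With the GC trend removed, log2 fold changes were -0.0287 for Wipf1, -0.0163 for Tln1, -0.0140 for Ptk2b, -0.0050 for Hcls1, 0.0635 for Cdc42, -0.0148 for Src, -0.0100 for Arpc1a and -0.0508 for Sh3pxd2a. Without both replicate 2 libraries they were 0.1130 for Nckap1l, -0.0320 for Tln1, 0.0718 for Cdc42, -0.1243 for Abi3, -0.0199 for Actg1, 0.0682 for Ptk2 and -0.0734 for Sh3pxd2a, and also -0.0505 for Wasf2, -0.0779 for Arpc3, -0.1691 for Gsn, -0.1437 for Pxn, -0.1264 for Zyx and -0.0079 for Coro1a, and on unscaled table reads -0.0061 for Wipf1. Without 1 library the range was -0.0817 to 0.0683 for Nckap1l, -0.0513 to 0.0676 for Wipf1, -0.1021 to 0.0308 for Actb, -0.0197 to 0.1474 for Lcp1, -0.0124 to 0.0818 for Tln1, -0.0591 to 0.0347 for Cdc42, -0.1892 to 0.3071 for Src, -0.0545 to 0.2476 for Abi3, -0.0199 to 0.1350 for Arpc1b, -0.0418 to 0.0762 for Arpc1a, -0.0118 to 0.1205 for Actg1, -0.1078 to 0.0360 for Actn1, -0.1401 to 0.0578 for Ptk2, -0.0008 to 0.2918 for Cttn, -0.0631 to 0.0600 for Sh3pxd2a and -0.0294 to 0.0232 for Cyfip2. Depth limits Nckap1, Src and Cttn most, which are not in the fit with the filter of 5 CPM.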
